A study of Mus musculus with 19 samples.

Results

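Capillary endothelial cells of mesenteric lymph nodes were set against capillary endothelial cells of peripheral lymph nodes, using the 2 arrays titled for the mesenteric and the 3 titled for the peripheral capillaries among the 19 arrays of the series. Each array measured RNA of sorted endothelial cells from BALB/c mice, an inbred strain, and each sample mixed both sexes equally at an age of 6 to 8 weeks, per the labels, which give no treatment and no altered gene. All probe sets that carried 1 gene symbol were used, 21789 of 28856, and averaging those of the same gene left 19938 genes. A difference is the mesenteric mean minus the peripheral mean of log2 signals, with its standard error (SE) from the model, and a value of 1 is a 2-fold difference. For context the same tissues gave high endothelial cells (HEC). There were 4 mesenteric HEC arrays, 2 from cells gated on both MAdCAM1 and PNAd and 2 from cells gated on MAdCAM1, and 4 peripheral HEC arrays. Peyer's patches, lymphoid follicles of the gut wall, gave 3 capillary arrays. The labels do not give the gates that defined capillary cells or how many animals went into a sample, and they do not say that arrays of a group came from separate sorts, so each p-value reflects nothing but the scatter among these arrays, and that scatter may be technical.

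Mesenteric lymph nodes receive lymph from the gut, and peripheral lymph nodes receive it from skin and muscle. In both, arterioles feed a capillary bed that drains into high endothelial venules, where blood lymphocytes bind ligands of L-selectin or the mucosal addressin MAdCAM1 and leave the blood. Capillary endothelium exchanges nutrients and gases with the tissue, and endothelial cells of different organs differ in transporters, enzymes for lipids and foreign compounds, and transcription factors that mark position along the body.

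The upstream sequence is shown for the genes with the highest and the lowest difference, Scgb3a1 and Glycam1, for the chemokine that fell, Cxcl9, and for Cyp1a1, a textbook target of the aryl hydrocarbon receptor. Each run is the 250 bases before the annotated start, 5' to 3' on the strand of the gene, from RefSeq annotation of GRCm38.p6. Scgb3a1 lies at chr11:49663345-49663594 on the plus strand, Cyp1a1 at chr9:57697363-57697612 on the plus strand, Glycam1 at chr15:103565082-103565331 on the minus strand and Cxcl9 at chr5:92328080-92328329 on the minus strand. Capitals mark 3 motifs searched on both strands: GCGTG, the core letters of a site of the aryl hydrocarbon receptor and its partner ARNT, GGGNTTTCC, 1 form of an NF-kB site, and GGAAGT, 1 form of an ETS factor site.
Scgb3a1: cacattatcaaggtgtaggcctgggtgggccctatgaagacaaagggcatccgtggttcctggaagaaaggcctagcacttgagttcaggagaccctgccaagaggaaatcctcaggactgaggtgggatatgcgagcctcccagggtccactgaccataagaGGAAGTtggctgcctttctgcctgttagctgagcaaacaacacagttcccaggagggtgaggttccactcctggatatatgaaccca
Cyp1a1: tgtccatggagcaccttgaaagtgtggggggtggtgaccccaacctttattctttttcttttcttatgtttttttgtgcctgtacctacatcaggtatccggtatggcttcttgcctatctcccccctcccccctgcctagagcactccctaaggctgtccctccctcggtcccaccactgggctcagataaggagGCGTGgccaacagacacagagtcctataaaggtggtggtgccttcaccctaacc
Glycam1: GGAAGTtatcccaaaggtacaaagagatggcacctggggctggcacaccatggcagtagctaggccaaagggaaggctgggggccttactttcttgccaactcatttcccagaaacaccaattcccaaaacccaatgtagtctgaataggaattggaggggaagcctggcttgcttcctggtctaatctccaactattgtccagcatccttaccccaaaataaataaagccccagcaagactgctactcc
Cxcl9: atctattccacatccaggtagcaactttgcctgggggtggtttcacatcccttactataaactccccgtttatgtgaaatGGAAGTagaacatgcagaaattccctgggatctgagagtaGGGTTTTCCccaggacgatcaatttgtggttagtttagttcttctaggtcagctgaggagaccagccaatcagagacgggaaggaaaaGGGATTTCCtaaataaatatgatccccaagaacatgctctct
The motifs were picked with these sequences in view, and their letters do not overlap one another here. GCGTG began 54 bases before the start of Cyp1a1. GGGNTTTCC began 130 and 42 bases before the start of Cxcl9. GGAAGT began 87 bases before the start of Scgb3a1, 250 before that of Glycam1 and 170 before that of Cxcl9. Over all 27025 promoter windows of this length, 28.2% held GCGTG, 1.48% held GGGNTTTCC and 20% held GGAAGT. Among genes past the threshold that had a window, GCGTG was in 8 of 20 higher and 10 of 25 lower genes, which is 40% of each. GGGNTTTCC was in 0 of the 20 and in 1 of the 25, and GGAAGT was in 4 of the 20 and 4 of the 25. A match describes letters in a window and shows no binding.

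Each probe set had been centred on a baseline that the sources used here do not state, so the values compare arrays and give no level of a gene against another gene or against background. The mean over 15 general endothelial markers was 0.51 and 0.48 in the mesenteric capillary arrays, against 0.62, 0.51 and 0.42 in the peripheral ones. The mean over 13 measured HEC markers was -0.04 and -0.21 in the mesenteric capillary arrays, against 0.90, 0.92 and 0.14 in the peripheral ones, while all HEC arrays of the series lay between 3.56 and 4.19. Peripheral capillary arrays 1 and 2 thus stood apart in HEC genes. How far this signal enters the differences of other genes that are high in HEC was not tested. The counts and most of the leading genes are given with and without arrays 1 and 2 below. For other leading genes the difference without them was 1.48 for Rassf9, 1.165 for Gadd45g, 0.73 for Ddit4 and 0.54 for Tmem252. It was -1.09 for Golm1, -1.07 for Ndn, -1.02 for Far2, -0.89 for Cmah, -0.83 for Itih5 and -0.81 for Olfml2a. Peripheral array 2 was also highest of the 5 in the mean of macrophage and dendritic cell markers (0.64) and of pericyte and smooth muscle markers (0.98), against 0.31 and 0.39 in peripheral array 1. In peripheral array 1 the Y-linked genes Uty and Eif2s3y were at -1.65 and -1.61 and the X-inactivation transcript Xist at 1.02. The other peripheral arrays had -0.39 to -0.03 for Uty and 0.03 to 0.19 for Xist. Array 1 thus stood apart in sex-linked genes, although the labels give every sample the same equal mix of sexes. The part of this in the differences was not tested. Within-group pairs of capillary arrays differed with an SD over genes of 0.244 in the mesenteric group and 0.249 to 0.279 in the peripheral group, and pairs across the groups with 0.211 to 0.304. The number of arrays limits the precision: the SE of a difference had a median of 0.139 over genes.

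Few genes separated the 2 capillary beds. Of 19938 genes 58 passed an adjusted p of 0.05 in limma, which is 0.291% of those tested. Of these 24 rose in mesenteric capillaries, 0.12% of all genes, and 34 fell, 0.171%. The secretoglobin Scgb3a1 was the most raised gene and the L-selectin ligand Glycam1 the most lowered. A difference of at least 2-fold was reached by 10 of the higher and 16 of the lower genes. The smallest difference among the 58 was 0.51 in size. An unadjusted p under 0.05 in limma was reached by 996 genes, 5% of those tested. That is the share a threshold of 0.05 would give with no difference at all. Without a test, 19.2% of all genes had mesenteric and peripheral arrays that did not overlap, and all 58 were among them. After a second quantile normalization the counts were 65 higher and 59 lower. Without peripheral capillary arrays 1 and 2, 4 genes passed (Meis2, Hcar1, Slc14a1 and Rftn2), each of them among the 58. The other 54 had adjusted p from 0.053 to 1. In that fit the peripheral group is a single array, as the mesenteric group is when either of its arrays is left out, and the single array is assumed to vary like the arrays of the other groups. With only the 5 compared arrays in the fit 0 passed in limma, with a lowest adjusted p of 0.143 and 1011 genes at an unadjusted p under 0.05. Leaving out each of the 5 arrays in turn kept 8 genes past the threshold every time: Scgb3a1, Meis2 and Hcar1 among the higher, and Slc14a1, Cxcl9, Cd109, Slc7a6 and Map2 among the lower. Without mesenteric array 1 the count was 15, without mesenteric array 2 it was 23 and without peripheral array 1 it was 32. Each of the 58 kept its sign in every alternative run. As their mesenteric and peripheral arrays did not overlap, leaving out arrays could not have reversed it.

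**Figure D1:**
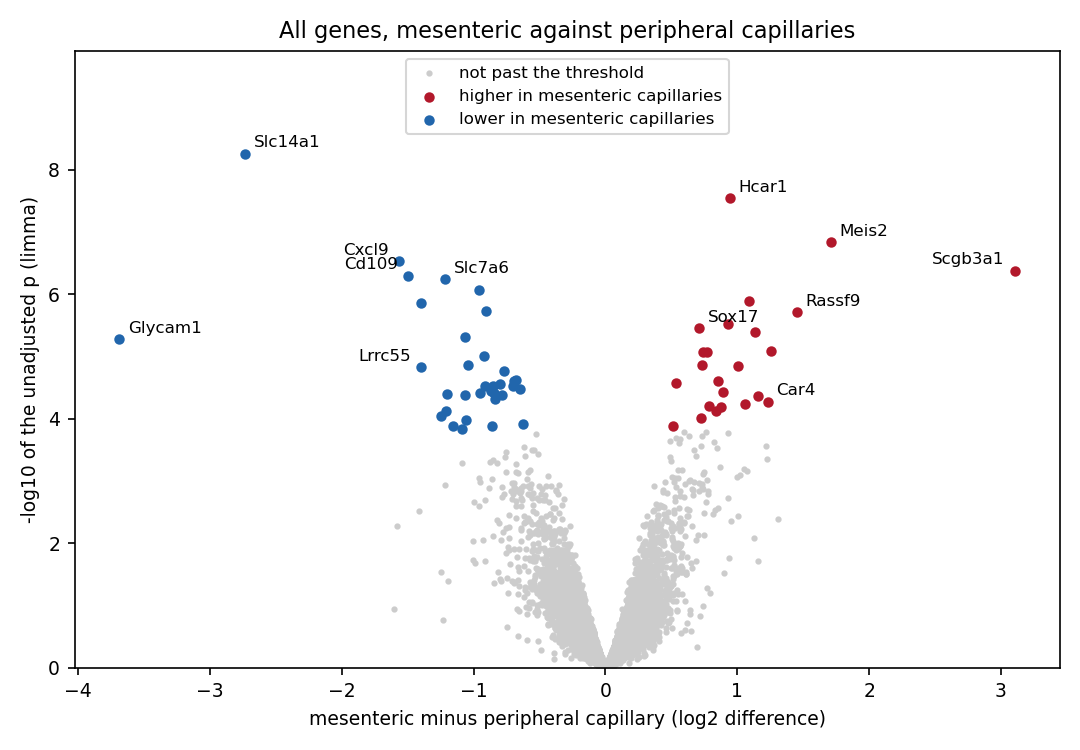
Log2 difference between mesenteric and peripheral capillaries (horizontal) against -log10 of the unadjusted limma p (vertical) for 19938 genes, 1 point each. The 24 higher genes are red and the 34 lower genes blue; Scgb3a1 lies farthest right at 3.11 and Glycam1 farthest left at -3.69.

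Scgb3a1 encodes a small secreted protein best known from airway epithelium. Its signal was 3.77 and 3.90 in mesenteric capillaries, against -0.21, 0.79 and 1.61 in peripheral capillaries. Both mesenteric arrays lay above all peripheral arrays, and the peripheral arrays were widely spread. The difference was 3.11 with an SE of 0.39, or 8.61-fold, with an adjusted p of 0.00163 in limma. Without peripheral arrays 1 and 2 it was 2.23 with an adjusted p of 0.0605. None of the other 12 measured genes of a mucosal secreted list (secretoglobins, chloride channel accessory proteins of the Clca family, trefoil and resistin-like genes) passed. Their differences ran from -0.25 for Agr2, a disulfide isomerase of mucus-secreting cells, to 0.49 for Clca3a1.

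Positional transcription factors had 2 higher members past the threshold, and no other pathway list had more than 1 in the fit over all arrays. After a second quantile normalization the positional list had 4 higher members (Hoxa5, Hoxa6, Meis2 and Nkx2-3). After that or centring on medians, fatty acid uptake (Car4 and Tcf15) and endothelial transcription factors (Sox17 and Tcf15) had 2 each. After the quantile normalization cholesterol and fatty acid synthesis also had 2 higher members (Sqle and Cyp51). The complement list had 2 lower members there (Cfb and Cd55). Meis2, a homeodomain factor that pairs with Hox and Pbx proteins on DNA, was at 0.50 and 0.35 in mesenteric capillaries, against -1.36, -0.96 and -1.54 in peripheral ones. The arrays did not overlap, and the difference was 1.71 with an SE of 0.20 (3.28-fold, adjusted p of 0.000974 in limma). It was 1.96 without peripheral arrays 1 and 2, with an adjusted p of 0.0114. Hoxa5, which patterns the neck and thorax and acts in endothelium as well, was at 1.18 and 1.14 in mesenteric capillaries, against 0, 0.24 and 0.57 in peripheral ones. Its difference of 0.89 with an SE of 0.16 had an adjusted p of 0.0197, and without peripheral arrays 1 and 2 it was 0.59 with an adjusted p of 1. The adjusted p was 0.271 without mesenteric array 1. Of 37 measured Hox, Meis, Pbx and Nkx genes these 2 rose and 0 fell, with a median difference of 0.08 against -0.01 over all genes. Non-overlapping arrays were seen for 12 members on the higher side, where 8.61% of all genes lay, and for 6 on the lower side, where 10.6% lay. Among the members that missed the threshold, Hoxa6 had a difference of 0.49 (adjusted p of 0.068) and Hoxb5 0.56 (adjusted p of 0.193), and both had arrays that did not overlap. Nkx2-3, the homeodomain factor that gut-associated vessels need to make MAdCAM1, was at 0.98 and 0.57 in mesenteric capillaries, against -0.15, 0.17 and -0.04 in peripheral ones. Both mesenteric arrays were higher, but the difference of 0.78 with an SE of 0.20 had an adjusted p of 0.193 in limma, and it was below 0.05 after a second quantile normalization, at 0.0431. Hoxd10 and Hoxd9 lay on the other side, with differences of -0.59 and -0.31 that missed the threshold.

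Among 17 measured genes that capillaries use to take up and handle fatty acids, 1 passed, although most differences lay above 0. Car4, a carbonic anhydrase anchored on the luminal face of capillaries, was at 5.67 and 4.58 in mesenteric capillaries, against 3.70, 4.21 and 3.77 in peripheral ones. The arrays did not overlap, but the mesenteric arrays lay farther from each other than mesenteric array 2 lay from the nearest peripheral array. The difference was 1.23 with an SE of 0.23 (adjusted p of 0.0234 in limma), and without mesenteric array 1 it was 0.68 with an adjusted p of 0.478. The adjusted p was 0.284 without peripheral arrays 1 and 2. The list had 10 of 17 members with non-overlapping arrays on the higher side, where 8.61% of all genes lay, and 1 on the lower side, where 10.6% lay. Its median was 0.57, and 0.27 after a second quantile normalization. Members that missed the threshold included Angptl4, a secreted inhibitor of lipoprotein lipase, at 1.31, Rbp7, a retinol-binding protein of adipose and heart endothelium, at 1.13, and Fabp5, a fatty acid carrier, at 0.95. Aqp7, a channel for water and glycerol, was at 0.85, and Tcf15, a transcription factor of fatty acid uptake in capillaries, was at 0.76 with an adjusted p of 0.0544.

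Cd36, the fatty acid translocase, was at 5.52 and 5.85 in mesenteric capillaries, against 4.56, 4.84 and 4.84 in peripheral ones. Although the arrays did not overlap, the difference of 0.94 with an SE of 0.35 had an adjusted p of 0.677 in limma, and after a second quantile normalization it was -0.37. Fabp4, another fatty acid carrier of capillaries, was at 3.26 and 3.09 in mesenteric capillaries, against 2.29, 2.57 and 2.41 in peripheral ones, a difference of 0.75 with an adjusted p of 0.308. Gpihbp1, which carries lipoprotein lipase across the capillary wall, was at 4.42 and 4.27 in mesenteric capillaries, against 3.57, 3.69 and 4.05 in peripheral ones, a difference of 0.57 with an adjusted p of 0.541. Rgcc, a cell cycle regulator used as a capillary marker, had overlapping arrays and a difference of 0.41. Lipoprotein lipase itself, Lpl, was at -0.67 and Meox2, a homeobox factor that works with Tcf15, at -0.52, both without passing. Markers of fat cells had 0 of 7 measured members past the threshold, with differences from -0.14 to 0.15, and the fat cell genes Adipoq and Plin1 were at -0.06 and 0.05.

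**Figure D2:**
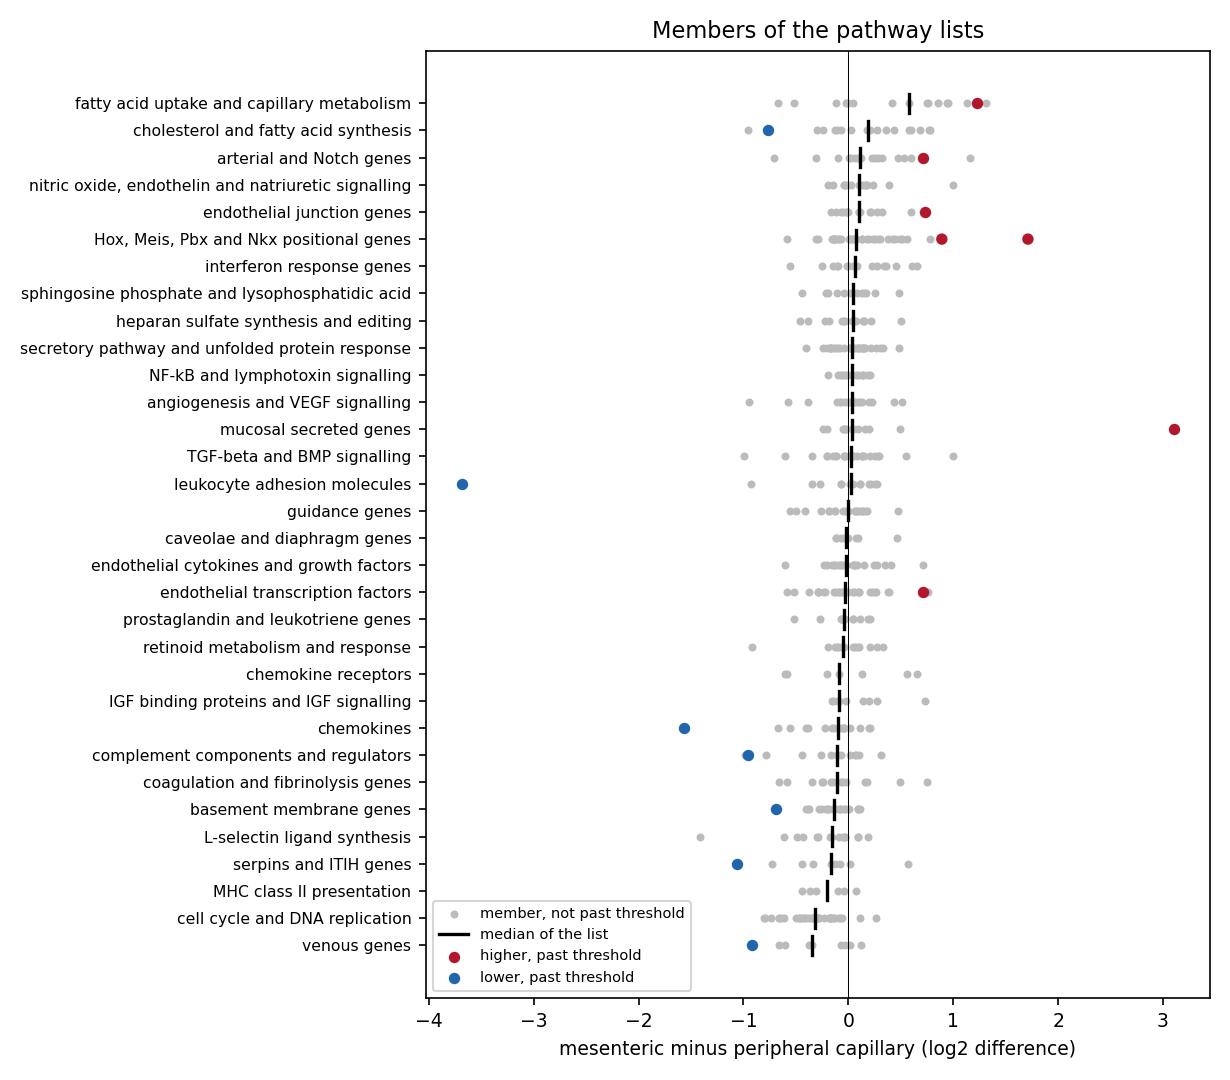
Log2 difference between mesenteric and peripheral capillaries (horizontal) of each measured member of the 32 pathway lists (rows, ordered by their median, drawn as a black tick). Red and blue points passed the threshold; the medians run from -0.35 for venous genes to 0.57 for fatty acid uptake, and 13 lists hold a member that passed.

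Other metabolic and foreign-compound enzymes rose as single genes. Pdk4, the kinase that switches off pyruvate dehydrogenase when fat is burned, was at 0.87 and 1.06 in mesenteric capillaries, against -0.22, 0.14 and -0.20 in peripheral ones, a difference of 1.06 with an SE of 0.20. Fmo2, a flavin monooxygenase, was at 0.93 and 0.98 against -0.06, -0.46 and -0.38, a difference of 1.26 with an SE of 0.20. In both genes the mesenteric arrays lay above every peripheral array. Cyp1a1, the cytochrome P450 whose promoter is shown above, was at 1.63 and 1.05 in mesenteric capillaries, against 0.16, 0.34 and 0.12 in peripheral ones, a difference of 1.13 with an SE of 0.17. Ephx1, the microsomal epoxide hydrolase, was at 0.27 and -0.16 against -1.17, -0.76 and -0.92, a difference of 1.01 with an SE of 0.17. The adjusted p in limma was 0.0248 for Pdk4, 0.00844 for Fmo2, 0.0053 for Cyp1a1 and 0.0117 for Ephx1. Without mesenteric array 1 the adjusted p was 0.151 for Cyp1a1 and 0.303 for Ephx1, and without mesenteric array 2 it was 0.371 for Pdk4 and 0.126 for Fmo2. With peripheral arrays 1 and 2 left out it was 0.315 for Pdk4, 0.21 for Fmo2, 0.183 for Cyp1a1 and 0.304 for Ephx1.

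Of the higher genes, Gadd45g and Ddit4 are known to be induced by cell stress. Gadd45g, a growth arrest gene, was at 0.49 and 0.41 in mesenteric capillaries, against -1.11, -0.29 and -0.72 in peripheral ones, a difference of 1.16 with an SE of 0.21. Ddit4, an inhibitor of the growth kinase mTORC1, was at 1.13 and 0.85 against 0.14, -0.01 and 0.26, a difference of 0.86 with an SE of 0.15. Both rose, with adjusted p of 0.0198 and 0.017 in limma and 0.284 and 0.357 without mesenteric array 1. Of 21 measured immediate-early and tissue dissociation genes, such as Fos, Jun and heat shock genes, 0 passed. Non-overlapping arrays were seen for 12 of them on the higher side, against 8.61% of all genes, and for 1 on the lower side, against 10.6%. The heat shock genes Hspa1a and Dnajb1 had differences of 1.22 (adjusted p of 0.0774) and 0.67 (adjusted p of 0.0828), and both passed after a second quantile normalization. The mean over this list was 0.63 and 0.62 in the mesenteric arrays, against 0.30, 0.26 and 0.39 in the peripheral ones, and the part of this shift in the rise of Gadd45g and Ddit4 was not tested.

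Surface proteins and receptors among the higher genes included Hcar1, the receptor for lactate, with the smallest adjusted p on that side. Its signal was 1.69 and 1.89 in mesenteric capillaries, against 0.88, 0.76 and 0.90 in peripheral ones. The groups were tight and apart, and the difference of 0.94 with an SE of 0.10 had an adjusted p of 0.000282 in limma, and of 0.0486 without peripheral arrays 1 and 2. Prom1, the membrane glycoprotein prominin, was at 1.97 and 1.89 in mesenteric capillaries, against 0.75, 1.27 and 0.96 in peripheral ones, a difference of 0.93 with an SE of 0.14. Oit3, a secreted protein known from liver sinusoidal endothelium, was at 1.35 and 1.90 against 0.51, 0.71 and 0.38, a difference of 1.09 with an SE of 0.15. Their adjusted p was 0.00467 for Prom1 and 0.00272 for Oit3, and 0.053 for each without peripheral arrays 1 and 2. Without mesenteric array 1 that of Prom1 was 0.107, and without mesenteric array 2 that of Oit3 was 0.0622. Rassf9, a RAS-association domain protein, was at 0.84 and 1.36 in mesenteric capillaries, against -0.17, -0.50 and -0.38 in peripheral ones. Its difference of 1.45 with an SE of 0.20 had an adjusted p of 0.00324, and of 0.105 without mesenteric array 2. Tmem252, a transmembrane protein, had a difference of 0.87 with an adjusted p of 0.027, and of 0.421 without mesenteric array 2.

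Of 20 arterial and Notch genes, Sox17 rose and 0 fell. Sox17, a transcription factor of arterial fate, was at 1.65 and 1.97 in mesenteric capillaries, against 1.05, 1.13 and 1.10 in peripheral ones. The peripheral arrays lay within 0.1 of each other and below both mesenteric arrays, and the difference was 0.71 with an SE of 0.10 (adjusted p of 0.00493 in limma, 0.168 without mesenteric array 2 and 0.266 without peripheral arrays 1 and 2). Gja5, the arterial connexin 40, was at 2.00 and 3.07 in mesenteric capillaries, against 1.83, 1.97 and 2.00 in peripheral ones. Its arrays overlapped, and the difference of 0.60 had an adjusted p of 0.457; without mesenteric array 1 it was 1.14 and passed, with an adjusted p of 0.00167. Efnb2, the arterial ephrin ligand, had a difference of 0.11, and the Notch ligand Dll4 one of 0.03. The list median was 0.12, with 17 of 20 differences above 0, against 46.6% of all genes. The lowest member was the Notch ligand Dll1 at -0.71, which did not pass in the fit over all arrays. After a second quantile normalization 15 of the 20 lay above 0, and Dll1 passed as lower. Of 16 junction genes, Cldn15, a claudin that forms paracellular channels in the gut lining, rose, at 1.27 and 1.46 in mesenteric capillaries, against 0.44, 0.62 and 0.85 in peripheral ones. Its difference of 0.73 with an SE of 0.14 had an adjusted p of 0.0377, and of 0.55 without mesenteric array 2. Cldn5, the main endothelial claudin, was at -0.16 and did not pass.

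**Figure D3:**
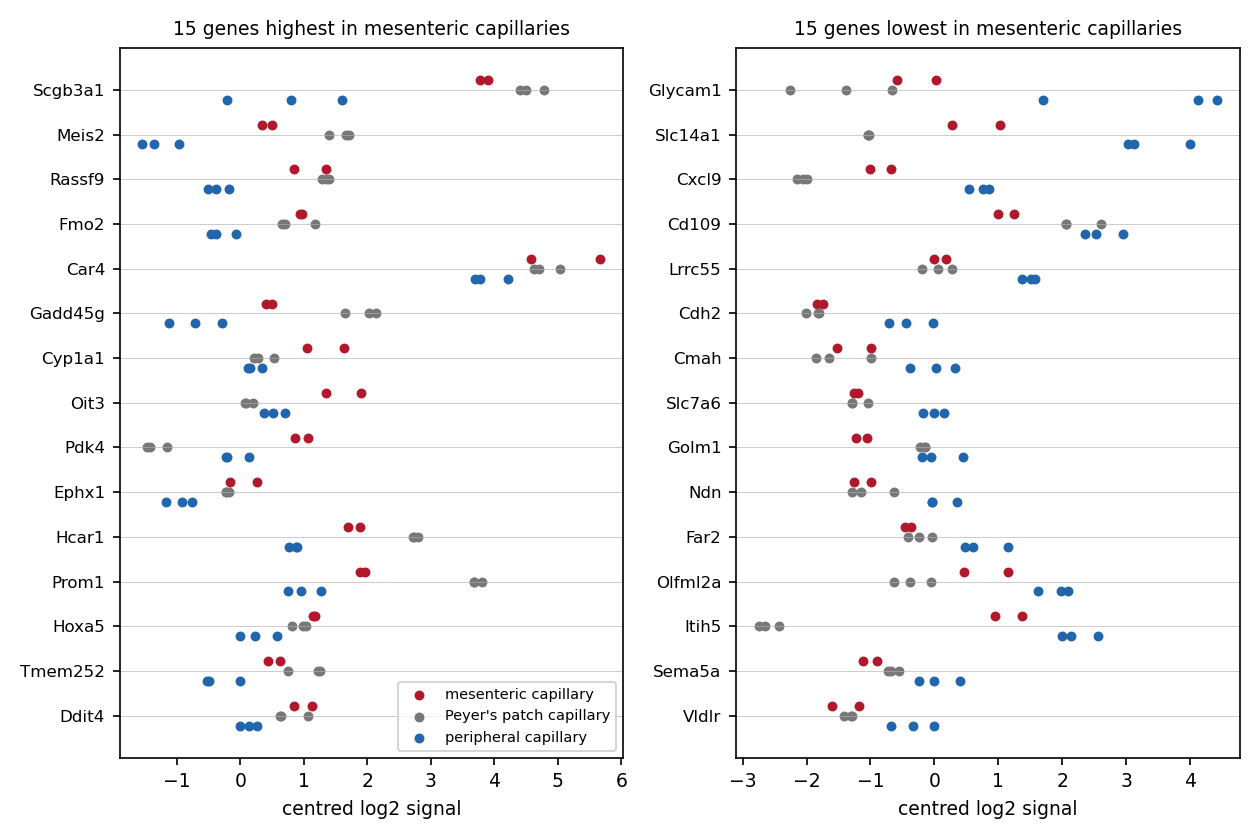
Centred log2 signal (horizontal) of the 15 highest genes (left) and the 15 lowest genes (right) among the 58, 1 point per array: 2 mesenteric capillary arrays in red, 3 Peyer's patch capillary arrays in grey and 3 peripheral capillary arrays in blue. In each row the red points do not overlap the blue ones; the widest blue spreads are those of Glycam1 (1.70 to 4.42) and Scgb3a1 (-0.21 to 1.61).

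The lowest difference was that of a marker of high endothelial cells. Glycam1, a secreted mucin-like carrier of L-selectin ligands made by high endothelial venules, was at 0.03 and -0.58 in mesenteric capillaries, against 4.42, 4.11 and 1.70 in peripheral ones. The arrays did not overlap, but peripheral array 3 lay nearer to the mesenteric arrays than to the other peripheral arrays. The difference was -3.69 with an SE of 0.56, or 12.9-fold lower, with an adjusted p of 0.00609 in limma. Without peripheral arrays 1 and 2 it was -1.98 with an adjusted p of 0.266, and without mesenteric array 2 the adjusted p was 0.132. In sorted bulk samples, fewer cells of a type and less RNA per cell cannot be told apart. Lrg1, a secreted glycoprotein of venous and high endothelium, was at 0.47 and 1.11 in mesenteric capillaries, against 1.59, 1.67 and 1.85 in peripheral ones. Unlike for Glycam1, peripheral array 3 was the highest of the 5, and the difference of -0.91 with an SE of 0.16 had an adjusted p of 0.0176. Without mesenteric array 1 it was -0.60 with an adjusted p of 0.431, and without peripheral arrays 1 and 2 it was -1.06 with an adjusted p of 0.251.

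Of the 13 measured HEC markers these 2 fell and 0 rose, with a median of -0.58. Above 0 lay 2 of the 13, the highest being Serpina3n at 0.57, which did not pass. After a second quantile normalization Glycam1 passed and Lrg1 did not, with a median of -0.61. Arrays did not overlap for 7 of the 13 on the lower side, against 10.6% of all genes. Chst4, the sulfotransferase of L-selectin ligands in high endothelium, was at -0.36 and -0.06 in mesenteric capillaries, against 2.19, 1.57 and -0.15 in peripheral ones. Peripheral array 3 lay within the mesenteric range, and the difference of -1.42 had an adjusted p of 0.288. Sele, the endothelial selectin, was at 0.28 and -0.04 in mesenteric capillaries, against 1.26, 1.46 and 0.42 in peripheral ones, a difference of -0.93 with an adjusted p of 0.505. The fucosyltransferase Fut7 had a difference of -0.48, the core 2 enzyme Gcnt1 one of -0.62 and the venular chemokine receptor Ackr1 one of -0.60, none of which passed. Without peripheral arrays 1 and 2 the median over the markers was -0.24 and 0 passed in limma. Of 15 genes of L-selectin ligand synthesis 0 passed, with a median of -0.15. Madcam1 was at -0.61 and -0.92 in mesenteric capillaries, against -0.92, -0.62 and -1.34 in peripheral ones. The mucosal addressin thus overlapped between the capillary groups, with a difference of 0.20 and an SE of 0.25.

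**Figure D4:**
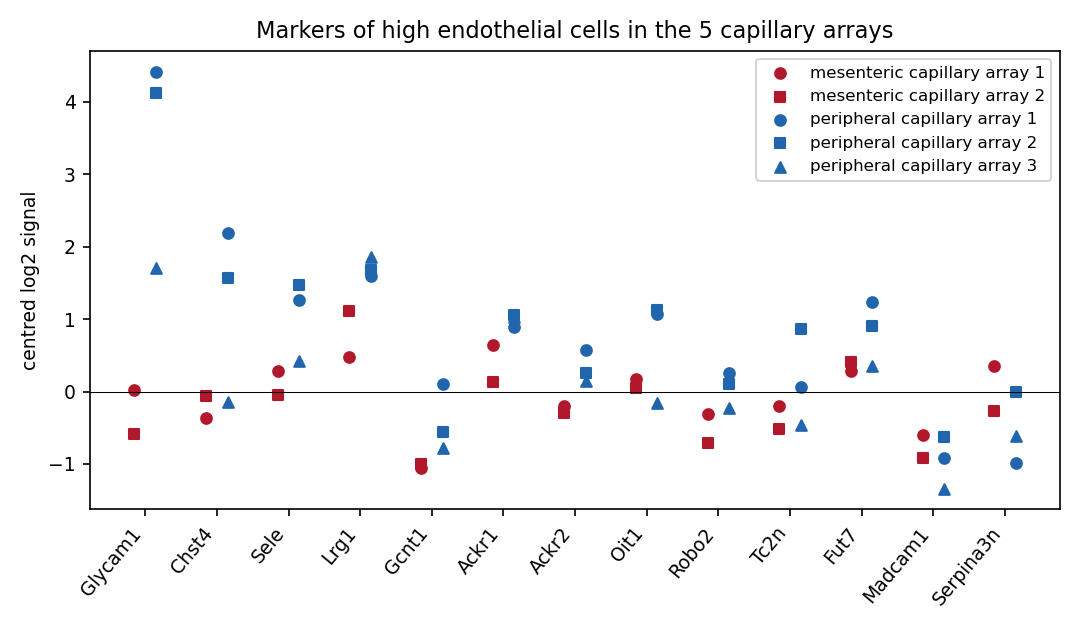
Centred log2 signal (vertical) of the 13 measured markers of high endothelial cells (horizontal, ordered by their difference) in mesenteric capillary arrays 1 and 2 (red) and peripheral capillary arrays 1 to 3 (blue). Peripheral arrays 1 and 2 stand above both mesenteric arrays for Glycam1 (4.42 and 4.11) and Chst4 (2.19 and 1.57), while peripheral array 3 is lower than they are for both (1.70 and -0.15).

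Of 9 measured venous genes Lrg1 fell and 0 rose, with a list median of -0.35, and of -0.03 without peripheral arrays 1 and 2. After a second quantile normalization 0 of the 9 passed. Nr2f2, the transcription factor of venous fate also called COUP-TFII, was at -1.13 and -0.81 in mesenteric capillaries, against -0.62, -0.40 and -0.78 in peripheral ones. The mesenteric arrays were lower, but the difference of -0.37 with an SE of 0.17 had an adjusted p of 0.977 in limma. Aplnr, the apelin receptor of veins, was at 0.02, and Vcam1, an integrin ligand, had overlapping arrays and a difference of -0.35.

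Cxcl9 was the 1 chemokine of 16 that passed. This ligand of CXCR3, induced by interferon gamma, was at -0.68 and -1.01 in mesenteric capillaries, against 0.76, 0.85 and 0.55 in peripheral ones. The groups were tight and lay apart by more than 1, and the difference of -1.56 with an SE of 0.19, or 2.96-fold lower, had an adjusted p of 0.00147 in limma. Without peripheral arrays 1 and 2 it was -1.39 with an adjusted p of 0.181. The other CXCR3 ligands, Cxcl10 and Cxcl11, had differences of -0.56 and -0.40 and did not pass. Of 16 measured interferon response genes 0 passed, with differences from -0.56 for Cxcl10 to 0.66 for Ifit1 and a median of 0.07. Of 6 genes of MHC class II presentation 0 passed, with a median of -0.21. Cfb, complement factor B, fell as the only one of 13 complement genes in the fit over all arrays. After a second quantile normalization Cd55 passed as lower too. Cfb was at -1.28 and -0.96 in mesenteric capillaries, against 0.25, -0.22 and -0.52 in peripheral ones. Its mean was -0.16 in peripheral capillaries and 2.79 in peripheral HEC. Its difference was -0.95 with an SE of 0.17 (adjusted p of 0.0197), and -0.60 with an adjusted p of 0.83 without peripheral arrays 1 and 2. The adjusted p was 0.401 without mesenteric array 1.

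Slc14a1 and Slc7a6 were lower solute carriers. Slc14a1, the urea transporter of descending vasa recta and red cells, was at 0.28 and 1.02 in mesenteric capillaries, against 4.00, 3.03 and 3.12 in peripheral ones. All 3 peripheral arrays lay above both mesenteric arrays by 2 or more, and the difference of -2.73 with an SE of 0.25, or 6.65-fold lower, had the smallest adjusted p of all genes, 0.000109 in limma. Without peripheral arrays 1 and 2 it was -2.47 with an adjusted p of 0.00265. Slc7a6, a transporter of basic and neutral amino acids, was at -1.19 and -1.26 in mesenteric capillaries, against 0.15, 0 and -0.18 in peripheral ones. It did not overlap either, and its difference of -1.22 with an SE of 0.16 had an adjusted p of 0.00163, and of 0.21 without peripheral arrays 1 and 2. Lrrc55, an auxiliary subunit of BK potassium channels, was at 0.18 and 0 against 1.58, 1.52 and 1.37, a difference of -1.40 with an SE of 0.23. Its adjusted p was 0.0117, with 0.19 without mesenteric array 2 and 0.556 without peripheral arrays 1 and 2.

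Lower genes with products at the cell surface included Cd109, Cdh2, Sema5a and Vldlr, which formed no fixed list. Cd109, a co-receptor that dampens TGF-beta signalling, was at 0.99 and 1.24 in mesenteric capillaries, against 2.95, 2.36 and 2.53 in peripheral ones, a difference of -1.50 with an SE of 0.19. Cdh2, N-cadherin, was at -1.84 and -1.74 against -0.02, -0.45 and -0.70, a difference of -1.40 with an SE of 0.19. In both the mesenteric arrays lay close together, below all peripheral arrays. Sema5a, a transmembrane semaphorin, was at -1.12 and -0.90 in mesenteric capillaries, against 0.40, 0 and -0.25 in peripheral ones, a difference of -1.06 with an SE of 0.16. Vldlr, a receptor for lipoproteins and reelin, was at -1.19 and -1.60 against 0, -0.34 and -0.68, a difference of -1.06 with an SE of 0.21. The adjusted p in limma was 0.00163 for Cd109, 0.00272 for Cdh2, 0.00597 for Sema5a and 0.0394 for Vldlr. In peripheral HEC the means were -0.27 for Cd109, 1.35 for Cdh2, 2.06 for Sema5a and 1.82 for Vldlr. In peripheral capillaries they were 2.61, -0.39, 0.05 and -0.34 in the same order. Without peripheral arrays 1 and 2 the differences were -1.41, -1.08, -0.76 and -0.72 in the same order of genes, and 0 of the 4 passed. Without mesenteric array 1 the adjusted p was 0.0696 for Cdh2 and 0.137 for Sema5a, and without mesenteric array 2 it was 0.646 for Vldlr. Of 24 TGF-beta and BMP genes 0 passed. Bmp2, a BMP ligand, was lowest at -0.995 and Inhbb, an activin subunit, highest at 0.998.

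The lower genes also held Cmah, Golm1, Far2 and Scd2, of which only Scd2 belonged to a list. Cmah, which converts the sialic acid donor from its acetyl to its glycolyl form, was at -0.998 and -1.52 in mesenteric capillaries, against 0.31, 0.03 and -0.38 in peripheral ones, a difference of -1.25 with an SE of 0.24. Golm1, a Golgi membrane protein, was at -1.22 and -1.06 against 0.44, -0.19 and -0.05, a difference of -1.21 with an SE of 0.23. Far2, which reduces fatty acids to alcohols, was at -0.45 and -0.37 in mesenteric capillaries, against 1.15, 0.47 and 0.61 in peripheral ones, a difference of -1.15 with an SE of 0.23. Scd2, a desaturase of fatty acids, was at -0.73 and -0.80 against 0.28, -0.02 and -0.23, a difference of -0.77 with an SE of 0.13. In peripheral HEC the means were 2.22 for Cmah, 1.62 for Golm1, -0.16 for Far2 and -0.47 for Scd2. In peripheral capillaries they were -0.01, 0.07, 0.74 and 0.01 in the same order. All 4 had non-overlapping arrays, with adjusted p of 0.0356 for Cmah, 0.0303 for Golm1, 0.0463 for Far2 and 0.013 for Scd2, in limma. Without mesenteric array 2 it was 0.632 for Cmah and 0.19 for Scd2, and without mesenteric array 1 it was 0.385 for Golm1 and 0.407 for Far2. Scd2 was the 1 of 18 genes of cholesterol and fatty acid synthesis that passed. The list median lay at 0.19, with the sterol enzymes Sqle at 0.78 and Cyp51 at 0.69 and the desaturase Scd1 at -0.96, none of them past the threshold.

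Lower genes with products in the matrix included Nid2, Itih5 and Olfml2a. Nid2, nidogen 2 of the basement membrane, was at 0.96 and 1.27 in mesenteric capillaries, against 1.75, 1.72 and 1.96 in peripheral ones, a difference of -0.69 with an SE of 0.12 (adjusted p of 0.017 in limma). The arrays did not overlap, and the other 19 measured basement membrane genes, among them the laminin and collagen IV chains, ran from -0.40 to 0.11 without passing. Itih5, a heavy chain of the inter-alpha-trypsin inhibitor family that binds hyaluronan, was at 1.37 and 0.95 against 2.55, 2.14 and 1.99, a difference of -1.06 with an SE of 0.19 (adjusted p of 0.0198). Olfml2a, an olfactomedin-like matrix protein, was at 1.16 and 0.46 in mesenteric capillaries, against 2.09, 1.98 and 1.62 in peripheral ones. Its difference of -1.09 with an SE of 0.22 passed narrowly with an adjusted p of 0.0499, and Ndn, the imprinted growth suppressor necdin, had a difference of -1.20 with an adjusted p of 0.0198. Without mesenteric array 2 the adjusted p was 0.45 for Itih5, 0.775 for Olfml2a and 0.346 for Ndn, and without mesenteric array 1 it was 0.386 for Nid2.

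The other 22 genes past the threshold, chosen for mention after their values were seen, had adjusted p from 0.00213 to 0.0463 in limma. With each of the 5 arrays left out in turn, Map2 passed every time, Kank4 and Mgll passed in 0 of 5 fits, and Bdkrb2, Dclk1, Gpr37, Myof, Ntrk2, Scube3, Sema6b and Thsd7a passed in 1 of 5. Rftn2 alone of the 22 passed without peripheral arrays 1 and 2. Higher among them were the bradykinin receptor Bdkrb2 (0.79), the monoacylglycerol lipase Mgll (0.84), the surface glycoprotein Cd24a (0.74), Gpr146 (0.73), Rhpn2 (0.77), Sema6b (0.53) and Kank4 (0.51). Lower were Rftn2, a raft protein (-1.04), Map2, a microtubule-associated protein (-0.96), the cyclic nucleotide phosphodiesterase Pde1c (-0.92), the actin-binding caldesmon Cald1 (-0.91), the membrane repair protein Myof (-0.87), Thsd7a (-0.86), Gpr37 (-0.85), the kinase Dclk1 (-0.84), Scube3 (-0.84), the protease Adam12 (-0.80) and the protease inhibitor Timp2 (-0.79). Cytl1 (-0.70), the glypican Gpc1 (-0.68), Mdga2 (-0.65) and the neurotrophin receptor Ntrk2 (-0.63) completed the lower genes.

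In the fit over all arrays, markers of other cell types passed in no list but that of HEC, while after a second quantile normalization the lymphatic marker Itga9 passed as lower. Pericyte and smooth muscle markers had 0 of 12 past the threshold and fibroblast and reticular cell markers 0 of 11. Lymphatic endothelial markers had 0 of 11, B cell markers 0 of 11 and plasma cell markers 0 of 8. T cell markers had 0 of 9, macrophage and dendritic cell markers 0 of 12 and intestinal epithelial markers 0 of 12. As 0.291% of all genes passed, lists this short would rarely hold any. In that order, 10, 9, 8, 10, 3, 9, 11 and 7 differences lay below 0, against 53.4% of all genes at or below 0. Arrays did not overlap on the lower side for 0, 5, 2, 3, 1, 5, 3 and 2 members, against 10.6% of all genes. The largest single values were those of Lyz2, the lysozyme of macrophages, at 0.08 and 0 in mesenteric capillaries, against 1.43, 4.23 and -0.73 in peripheral ones, and of the matrix proteoglycan Dcn, at -0.23 and -0.34 against 0.77, 1.79 and 0.32. For both, peripheral array 2 was the highest. The intestinal epithelial markers had differences from -0.16 to 0.20. General endothelial markers had 0 of 15 past the threshold and a median of 0.05. Of 34 cell cycle and replication genes 0 passed. Below 0 lay 32 of the differences, against 53.4% of all genes at or below 0, with a list median of -0.32, and 21 members had non-overlapping arrays on the lower side, against 10.6% of all genes. Mki67, the proliferation antigen, was at 0 and -0.14 in mesenteric capillaries, against 1.33, 0.46 and 0.38 in peripheral ones, and peripheral array 1 was the highest. Across the list the mean was -0.08 and 0.01 in the mesenteric arrays, against 0.49, 0.22 and 0.19 in the peripheral ones. Of 16 retinoid genes 0 passed, and Aldh1a1 and Aldh1a2, which make retinoic acid, had differences of -0.10 and 0.10. Cxcl12, a chemokine that holds CXCR4-bearing cells, was at 0.11.

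High endothelial cells of the same tissues gave a second set of arrays, none of them shared with the capillary comparison. Between mesenteric and peripheral HEC 537 genes passed, 2.69% of those tested, of which 144 were higher and 393 lower. Of the 24 genes raised in capillaries 7 were also raised in HEC (Ddit4, Gpr146, Hoxa5, Meis2, Mgll, Pdk4 and Rassf9), which is 29.2% of the capillary list and 4.86% of the HEC list. Of the 34 lowered in capillaries 10 were also lowered in HEC (Cdh2, Cxcl9, Golm1, Gpc1, Itih5, Mdga2, Pde1c, Slc14a1, Slc7a6 and Vldlr), which is 29.4% and 2.54%. Opposite calls were made for Cd24a and Fmo2, higher in capillaries and lower in HEC, and for Cytl1, Lrrc55, Myof and Scd2, lower in capillaries and higher in HEC. The signs were the same for 43 of the 58. Across the 58 genes, which were selected by their capillary difference, the differences of the 2 cell types had a Pearson r of 0.456, and across all 19938 genes one of 0.293, given as a description across genes that are not independent. As 2 of the peripheral capillary arrays carried HEC signal, the comparisons may not be independent although they share no array. Of the genes lowered in both, Cdh2, Golm1, Gpc1, Pde1c, Slc7a6 and Vldlr had higher means in peripheral HEC than in peripheral capillaries. Cxcl9, Itih5, Mdga2 and Slc14a1 did not. The part of the HEC signal in the overlap, the shared signs and these correlations was not tested.

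Whether the tissue difference depended on the cell type was tested as an interaction, the capillary difference minus the HEC difference. It passed for 83 of all genes, 0.416%, and for 24 of the 58. The 58 were selected by the capillary difference, which is part of the interaction, so that selection favoured their higher share. Meis2 differed alike in both cell types, by 1.71 in capillaries and 1.64 in HEC, with an interaction of 0.07, an SE of 0.25 and an adjusted p of 0.993 in limma. Rassf9 was at 1.45 and 1.33, and Vldlr at -1.06 and -1.004, again with interactions near 0. Scgb3a1 was raised by 3.11 in capillaries against 0.30 in HEC, an interaction of 2.80 with an adjusted p of 0.013. Glycam1 was at -3.69 in capillaries and 0.07 in HEC, an interaction of -3.76 with an adjusted p of 0.0229, and without peripheral capillary arrays 1 and 2 one of -2.05 with an adjusted p of 0.199. Slc7a6 and Itih5 differed in the same direction in both but by more in HEC, at -1.22 and -1.06 in capillaries against -3.50 and -3.23 in HEC, with interactions of 2.29 and 2.17. Slc14a1 was at -2.73 and -1.65, and that interaction of -1.09 did not pass. Madcam1 differed by 3.50 in HEC, but MAdCAM1 was a sorting marker of the mesenteric HEC, so that value is no independent result.

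**Figure D5:**
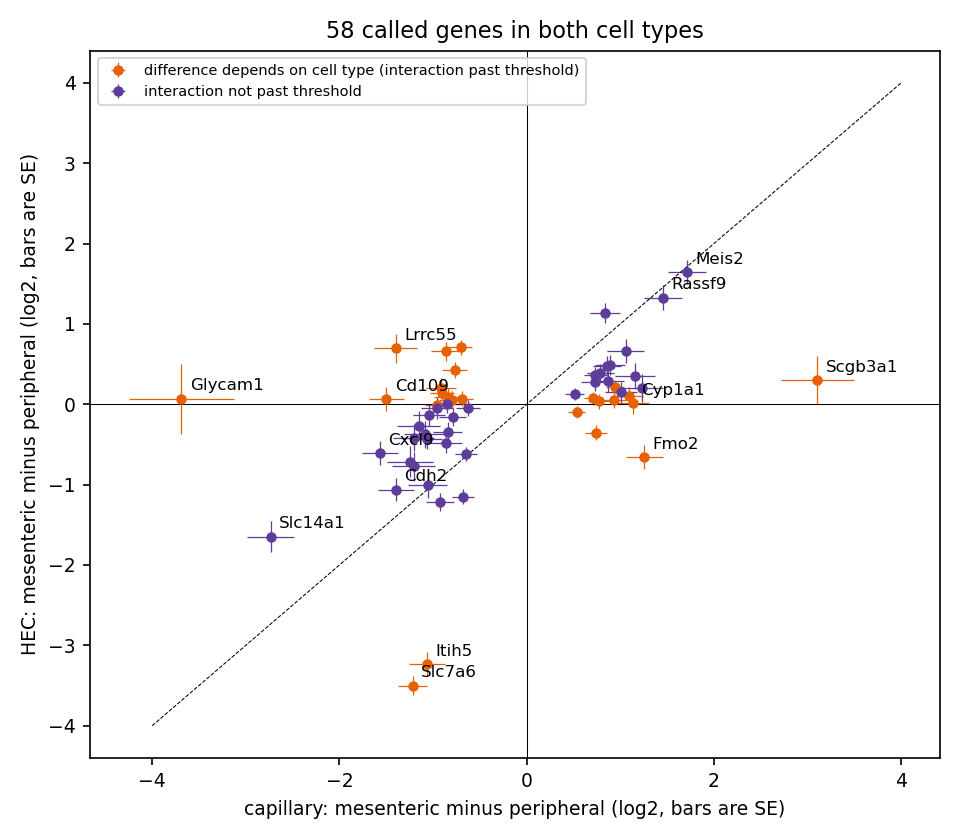
Mesenteric minus peripheral log2 difference in capillary cells (horizontal) against that in HEC (vertical) for the 58 genes that passed in capillaries; bars are SE, the dashed line marks equal differences, and orange points passed the interaction test. Meis2 (1.71 and 1.64) lies near the dashed line, while Scgb3a1 (3.11 and 0.30) and Glycam1 (-3.69 and 0.07) lie near the horizontal axis and Slc7a6 (-1.22 and -3.50) far below it.

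Peyer's patch capillaries place the same genes beside another tissue. Against peripheral capillaries 925 genes passed in Peyer's patches, 4.64%, compared with the 58 of mesenteric capillaries, and these comparisons share the 3 peripheral arrays. Peyer's patches had 3 capillary arrays and mesenteric nodes 2, so the 2 counts differ in precision as well. Peyer's patch minus mesenteric capillaries gave 370, 1.86%. Scgb3a1 was at 4.78, 4.50 and 4.40 in Peyer's patch capillaries, which lay 0.72 above the mesenteric mean (adjusted p of 0.765 in limma). Meis2 was at 1.72, 1.66 and 1.40 there, 1.17 above the mesenteric mean (adjusted p of 0.00302), and Nkx2-3 was at 2.50, 2.08 and 2.22, 1.497 above it (adjusted p of 0.000416). For Meis2 and Nkx2-3 the mesenteric value lay between the other tissues. Hoxa5 did not follow, at 1.03, 0.99 and 0.82 in Peyer's patches, below both mesenteric arrays. Prom1 and Hcar1 followed the same order, at 3.68, 3.67 and 3.81 and at 2.72, 2.80 and 2.74 in Peyer's patches. Slc14a1 was at -1.04, -1.03 and -1.02 and Cxcl9 at -2.00, -2.15 and -2.05, with differences from the mesenteric mean of -1.68 and -1.22 and adjusted p of 0.000962 and 0.0014. Other genes did not follow the order. Oit3 was at 0.08, 0.20 and 0.08 and Pdk4 at -1.46, -1.43 and -1.16 in Peyer's patches, with differences from the mesenteric mean of -1.504 and -2.31. Cyp1a1 was at 0.53, 0.21 and 0.28, a difference from the mesenteric mean of -0.999 (adjusted p of 0.00291). Cd109 was at 2.60, 2.06 and 2.06, 1.12 above the mesenteric mean (adjusted p of 0.00291), and Myof at 0.60, 0.82 and 0.72, 2.82 above it.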

How the data were processed

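Per the labels, total RNA of sorted endothelial cells was extracted with a Qiagen RNeasy Plus Micro kit, amplified, and hybridised as biotin-labelled single-stranded cDNA to an Affymetrix array. The deposited values are log2 signals that the authors made with RMA, and the submitters' processing notes also name Partek, both without a version. The values run from -4.09 to 6.13, and 54.5% of probe sets hold an exact 0 on some array, so each probe set had been centred on a baseline that the sources used here do not give; detection and absolute level are therefore unknown. Of 28856 probe sets 1621 carried several gene symbols and 5446 were unnamed here, and both kinds were left out; the 999 genes with several probe sets were averaged.

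A linear model over all 19 arrays in 7 groups was fitted with limma 3.58.1 in R 4.3.3 (12 residual and 4.62 prior degrees of freedom), and p-values were adjusted by Benjamini-Hochberg over 19938 genes at a threshold of 0.05. The 2 mesenteric HEC gates were given equal weight. The rule for naming genes took the 15 highest and 15 lowest differences past the threshold whose arrays did not overlap, leaving out predicted genes and receptor families, up to 4 members past it in each list, list members named for their role, and 18 fixed genes. The members and lists were chosen with earlier results of these data known, and some lists share genes. Of 691 genes in 47 lists 647 were measured.

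On simulated data over 19938 genes, the capillary comparison recovered 86% of 100 genes changed by log2 1 and all 100 changed by log2 2, with 11 unchanged genes among 197 called. The simulated scatter was normal and independent between genes and arrays, with 1 spread per gene in all groups. It held no shift shared by many genes of an array, such as the HEC signal of peripheral arrays 1 and 2. These rates may therefore not hold for the deposited arrays. The plots come from matplotlib 3.10.9 under Python 3.11.15. Alternatives were arrays left out, smaller fits, a replicate block, other scaling, array weights, probe set handling, a robust prior, a filter on range and a 2-fold minimum.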

Additional observations from a re-analysis of the deposited data

Results flagged for a closer look

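For 26 of the genes named, the mesenteric minus peripheral difference itself differed between capillary cells and HEC, by the interaction test in limma with adjusted p from 2.09e-05 to 0.049. The values below are the capillary difference minus the HEC difference, on the log2 scale. Most of the genes named were selected by their capillary difference, which is part of this value and favours a pass. Among genes raised in capillaries the value was 2.80 for Scgb3a1, 1.91 for Fmo2, 1.12 for Cyp1a1, 1.09 for Cd24a, 0.99 for Oit3, 0.87 for Prom1, 0.74 for Rhpn2, 0.73 for Hcar1, 0.64 for Sox17 and 0.63 for Sema6b. Among genes lowered in capillaries it was -3.76 for Glycam1, -2.10 for Lrrc55, -1.56 for Cd109, -1.52 for Myof, -1.41 for Cytl1, -1.20 for Scd2, -1.12 for Lrg1, -1.05 for Cald1, -0.95 for Map2, -0.92 for Scube3, -0.86 for Adam12 and -0.76 for Nid2. Slc7a6 and Itih5 were lowered more in HEC, with values of 2.29 and 2.17. The fixed genes that did not pass in capillaries had -3.30 for Madcam1, whose protein was a sorting marker of the mesenteric HEC, and -1.55 for the apelin receptor Aplnr.

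Single arrays stood apart in the group of 4 peripheral HEC arrays for 5 of 73 genes screened, and chance flags about 1 in 20 groups. Fmo2 was at 0 on array 1, with the others between 0.655 and 0.757. Itih5 was at 0.0377 on array 4, with the others between 0.265 and 0.300. On array 1, Aldh1a1 was at -0.369, with the others between -0.159 and -0.141, and Gpr146 was at -0.339, with the others between 0.0161 and 0.0755. Sema6b was at 0.472 on array 2, with the others between 0.349 and 0.361.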

How the results depend on the processing

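The capillary count of 58 genes (24 higher, 34 lower) was 4 (2 and 2) without peripheral capillary arrays 1 and 2, 0 (0 and 0) with only the 5 arrays compared, 10 (4 and 6) with only the 8 capillary arrays, 124 (65 and 59) after a second quantile normalization, 91 (44 and 47) with array quality weights and 26 (10 and 16) with a 2-fold minimum as well. With 1 of the 19 arrays left out it ranged from 15 to 68, with 9 to 32 higher and 6 to 41 lower; it moved by over 1.5 times without mesenteric capillary array 1 (15), mesenteric capillary array 2 (23) or peripheral capillary array 1 (32). Centring on medians, the choice of probe set, the robust prior and the filter on range gave 54 to 61. The HEC count of 537 was 1199 with weights, 85 with the 2-fold minimum and 285 to 665 with an array left out, at 285 without double-positive HEC array 2 and 324 without MAdCAM1 HEC array 4; leaving out HEC arrays was chosen after seeing the data. The interaction count of 83 was 46 without peripheral capillary arrays 1 and 2, 155 with weights and 35 to 89 with an array left out, at 35 and 38 without mesenteric capillary arrays 1 and 2 and 52 without double-positive HEC array 2. Peyer's patch minus peripheral capillaries (925) gave 354, 1516 with weights, 253 at 2-fold and 648 to 1041, and Peyer's patch minus mesenteric capillaries (370) gave 790 with weights, 136 at 2-fold and 167 to 429, at 199 and 167 without mesenteric arrays 1 and 2. List members past the threshold numbered 13, against 1 without peripheral capillary arrays 1 and 2, 0 with 5 arrays, 3 with 8 arrays, 22 after quantile normalization, 6 at 2-fold and 6 to 16 with an array left out. The cause of these shifts was not tested, apart from the fewer arrays in the smaller fits.

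With the replicate number as a block the capillary count was 62 (27 higher, 35 lower), 51 of them among the 58, and the other counts were 570, 74, 999, 364 and 16 in the order above. Deviations of same-numbered arrays correlated at 0.00154 for number 1 and -0.352 for number 2, and with 2 mesenteric arrays these values are too thin to show whether arrays share a sort or batch. Pairs of capillary and HEC arrays were not checked, and the numbers were not used as pairs. The few arrays and the unknown level over background limit precision.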
